A study of Mus musculus with 2 samples.

Results

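Olig1, Olig2, Sox10, Gpr17, Pdgfra, Cspg4 and C1ql1 are 7 genes by which oligodendrocyte precursor cells are recognised in the brain. They are taken by name, with no measured value in the rule, and all 7 had reads in both libraries, among 18366 annotated mouse genes with a read in either. Together they held 341 reads in replicate 1 and 358 in replicate 2, spread over 26 and 37 transcript models. Scaled to 1000000 mouse reads of the library (CPM), their summed level was 440 in replicate 1 and 387 in replicate 2.

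Oligodendrocyte precursors are the dividing glial cells from which the myelinating oligodendrocytes of the cortex arise. They depend on platelet-derived growth factor acting through its receptor Pdgfra, carry the proteoglycan NG2 encoded by Cspg4 on their surface, and take their identity from the transcription factors Olig1, Olig2 and Sox10. Gpr17 marks the committed stage before myelination, and Olig1, Olig2 and Sox10 stay on in the mature cell, so the 7 genes cover the lineage and not only its precursors. Pdgfra is also known from meningeal fibroblasts and Cspg4 from pericytes and smooth muscle.

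The RNA came from the left side of the cerebral cortex, and the donors were B6CASTF1/J males of 14 days, an age at which cortical myelination is under way. B6CASTF1/J is the first-generation cross of C57BL/6J with the wild-derived CAST/EiJ strain, and the labels name no mutation or treatment. There was 1 group with 2 libraries, each from 2 µg of total RNA and sequenced with long reads that can span a whole transcript. Both samples carry 1 donor identifier and their descriptions mention several males, so whether they are separate animals or pools is not given in the sources used here.

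As there is 1 group, no conditions can be compared. The values describe where the 7 genes stood and by how much the libraries differed. Replicate 1 held 775048 mouse reads and replicate 2 held 924222, with 0.955% and 1.16% of all reads on spike-ins. A p-value below sets the difference between these libraries against counting error only, and the difference may be technical. As a check of the tissue, Slc17a7, the vesicular glutamate transporter of cortical excitatory neurons, had 1368 and 1316 CPM. By Fisher's exact test of a gene's reads against the other mouse reads, adjusted over all 11203 genes tested, 2.11% of genes passed. Of 7 genes known from striatal neurons 6 could be tested and 5 were higher in replicate 1, with summed levels of 928 CPM in replicate 1 and 223 CPM in replicate 2; Drd2 and Adora2a had no read in replicate 2. In tissue RNA, fewer cells of a type and less RNA per cell cannot be told apart.

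The mean levels ranged from 16.2 to 128 CPM, and their order was nearly the same in both libraries. A long read was taken to stand for 1 molecule, so CPM values here were not divided by transcript length, and lengths are given beside them. Whether a molecule was read more than once was not tested. How well molecules of different lengths were captured was not tested. Olig1 was highest, at 128 ± 3.40 CPM (SD, n = 2 here and below), a level above that of 91.5% of the annotated genes with a read. Olig2 followed at 79.6 ± 20.7 CPM, Gpr17 at 54.7 ± 0.701, C1ql1 at 47.3 ± 4.21, Pdgfra at 47.0 ± 8.33 and Sox10 at 41.0 ± 5.92 CPM. Cspg4 was lowest at 16.2 ± 4.65 CPM, above 56.5% of genes. Of neighbours in this order, C1ql1 and Pdgfra overlapped in their library values, as did Pdgfra and Sox10, and so these do not differ beyond their spread. The other neighbours did not overlap, which with 2 values each is a description and no test. Both libraries gave the same order except that C1ql1 and Pdgfra changed places. The order depended on the models counted: with Known models alone Olig1 stayed at 128 CPM, and Olig2 had 59.3, C1ql1 39.9, Sox10 27.3, Gpr17 16.7, Pdgfra 6.47 and Cspg4 1.08 CPM.

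**Figure D1:**
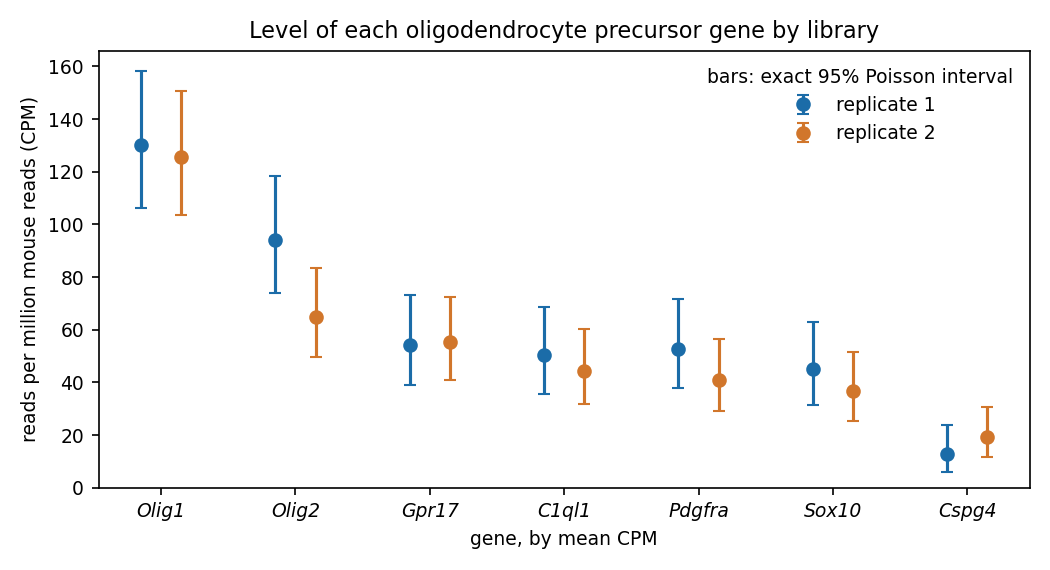
Level of each of the 7 genes in CPM, by library, with exact 95% Poisson intervals that cover counting error only. Olig1 stood highest in both libraries (130 and 126 CPM) and Cspg4 lowest (12.9 and 19.5 CPM), and the intervals of the libraries overlapped for each gene.

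Among the transcription factors, Olig1 encodes a basic helix-loop-helix protein needed for differentiation and repair of myelin. It lies on mouse chromosome 16 (91269772 to 91271933, plus strand, mm10) as a gene of 1 exon of 2162 bases, of which 783 are coding. It had 101 reads in replicate 1 and 116 in replicate 2, that is 130 CPM (exact Poisson 95% interval 106 to 158) and 126 CPM (104 to 151). The log2 ratio, taken throughout as replicate 1 over replicate 2, stood at 0.06 (95% interval -0.33 to 0.44), and Fisher's exact test gave an adjusted p of 1. The libraries thus gave nearly the same level. All 217 reads were assigned to the annotated transcript Olig1-201, and 0 went to any other model, which allows a share of up to 1.38%. With 1 annotated transcript of 1 exon, Olig1 has no chain of introns to match. Its share is therefore not comparable with those of the spliced genes and does not measure how complete its reads were.

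Olig2, the related helix-loop-helix factor that specifies the oligodendrocyte lineage, lies on the same strand of chromosome 16 (91225457 to 91228677), 41094 bases upstream of Olig1. Olig2-201 has 2 exons and 2530 bases, with all 972 coding bases in the last exon. The gene had 73 reads in replicate 1 and 60 in replicate 2, or 94.2 CPM (73.8 to 118) and 64.9 CPM (49.5 to 83.6). It was the gene of the 7 with the largest SD, and its log2 ratio was 0.53 (95% interval 0.04 to 1.03, Fisher's exact p = 0.0364, adjusted p = 0.393 over all genes), which did not pass. With reads of Known models alone the ratio was 0.91 (95% interval 0.32 to 1.49, Fisher's exact adjusted p = 0.0874), also short of the threshold. With ERCC spike-in reads as the denominator it was 0.82 and passed (exact binomial test against the libraries' share of spike-in reads, adjusted p = 0.0219). The median of all tested genes was 0.29 there in place of 0.01. Olig1 had 1.38 reads per Olig2 read in replicate 1 and 1.93 in replicate 2.

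The coding sequences of the pair are shown where they are most alike, since reads of similar genes can be exchanged by an aligner. Of 180 aligned bases 108 were identical (60.0%), and these are in capitals. The longest identical run of the transcripts had 17 bases. Whether reads of the pair were exchanged was not tested. Both sequences are on the plus strand of mm10, from the GENCODE transcripts, at chr16:91270258-91270437 and chr16:91226808-91226987.
Olig1: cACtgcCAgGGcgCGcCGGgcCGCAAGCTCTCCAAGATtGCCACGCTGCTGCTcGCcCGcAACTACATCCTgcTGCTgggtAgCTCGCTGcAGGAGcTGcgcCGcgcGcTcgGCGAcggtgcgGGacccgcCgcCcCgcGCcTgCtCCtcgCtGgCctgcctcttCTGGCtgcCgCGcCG
Olig2: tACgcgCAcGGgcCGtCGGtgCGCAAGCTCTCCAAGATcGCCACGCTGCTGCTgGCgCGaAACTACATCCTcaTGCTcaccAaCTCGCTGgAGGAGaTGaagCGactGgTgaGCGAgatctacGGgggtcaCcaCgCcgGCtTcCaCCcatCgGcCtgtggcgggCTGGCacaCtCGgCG

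Olig2 reads fell into 2 main kinds. The spliced transcript Olig2-201 took 60 of 73 reads in replicate 1 and 38 of 60 in replicate 2, shares of 82.2% (Wilson 95% interval 71.9% to 89.3%) and 63.3% (50.7% to 74.4%). Nearly all other reads, 13 and 21, were in a single-exon model of the genomic class, which holds models that overlap a gene without matching its splicing. That model had the same ends in both libraries, 91225653 to 91228677, ran without a break across the 691-base intron from the last base of exon 1, and held the whole coding sequence. The tables hold 1 pair of ends per model, often an annotated exon boundary, so a model can be longer than its reads. Its share was 17.8% (10.7% to 28.1%) and 35.0% (24.2% to 47.6%), so the intervals of the libraries overlapped. For the share of Olig2-201, Fisher's exact test gave p = 0.0177 and an adjusted p of 0.668 over the 6024 genes tested, of which 0.249% passed. Over both libraries the genomic share was 25.6%, above that of 92.9% of 6178 genes that had 20 or more reads per library, whose median was 1.73%. The remaining read, in replicate 2, joined the annotated donor to an acceptor 136 bases further downstream.

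Sox10, the SOX factor that switches on myelin genes, lies on chromosome 15 (79154908 to 79165240, minus strand). Sox10-201 has 4 exons, 2713 bases and a coding sequence of 1401 bases. The gene had 35 reads in replicate 1 and 34 in replicate 2, or 45.2 CPM (31.5 to 62.8) and 36.8 CPM (25.5 to 51.4). The log2 ratio was 0.30 (95% interval -0.38 to 0.97, Fisher's exact adjusted p = 0.881), so no difference beyond counting error was detected. Sox10-201 took 23 of 35 and 23 of 34 reads (65.7% and 67.6%), and no other Known model had a read.

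Of the other Sox10 reads, those of 2 chains lacking the first or the first 2 exons numbered 5 in replicate 1 and 2 in replicate 2. Single-exon genomic models held 6 and 7 reads but did not cover the same stretch. That of replicate 1 lay within the last exon (79154913 to 79156241), whereas that of replicate 2 (79153850 to 79155440) ran 1063 bases past the annotated 3′ end of Sox10-201 and held no coding sequence. The neighbouring gene Polr2f had 17 and 22 reads. Models with the whole coding sequence held 26 of 35 and 24 of 34 Sox10 reads.

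Among the receptors, Pdgfra encodes the receptor tyrosine kinase through which platelet-derived growth factor drives precursor division. It lies on chromosome 5 (75152292 to 75198215, plus strand) with 9 annotated transcripts. Pdgfra-201 has 23 exons and 6549 bases, of which 3270 are coding, and its last exon of 3263 bases holds only 148 coding bases. The gene had 41 reads in replicate 1 and 38 in replicate 2, or 52.9 CPM (38.0 to 71.8) and 41.1 CPM (29.1 to 56.4). Its log2 ratio was 0.36 (95% interval -0.27 to 0.99, Fisher's exact adjusted p = 0.830), which did not pass. Genes known from meningeal fibroblasts had summed levels of 181 CPM in replicate 1 and 308 CPM in replicate 2. All 6 of their tested ratios were below 0 (5 of 6 with ERCC reads as the denominator) and 1 passed. Of all tested genes 51.5% had a ratio above 0 and 2.11% passed, and with ERCC reads their median was 0.29. The part of the fibroblast genes in the Pdgfra value was not tested. Pdgfrb, the receptor of mural cells, had 13 and 17 reads.

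Most Pdgfra reads were in models without the start codon, which 17 of 79 reads had. A single-exon model of the last exon, of the class of incomplete splice matches (ISM, part of an annotated chain of introns), held 25 of 41 reads in replicate 1 and 18 of 38 in replicate 2. Chains of 21 exons that begin in exon 3 followed with 4 and 4 reads, and Pdgfra-201 with 4 and 3. Models with the whole coding sequence held 5 of 41 reads (12.2%, Wilson 5.32% to 25.5%) and 7 of 38 (18.4%, 9.22% to 33.4%). The ISM share over both libraries was 77.2%, above 98.8% of the 6178 genes. The median was 6.29% over those genes and 13.9% over the 591 of them whose longest coding transcript was of like length, and the Pdgfra share was above that of 97.3% of the 591. The share of Known models, at 13.9%, was above that of 23.2% of the 591.

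First exons of Pdgfra could be read in 17 reads. The annotated first exon that ends at 75152457 served 4 reads in replicate 1 and 9 in replicate 2, that ending at 75153698 served 2 and 0, and that ending at 75156349 served 0 and 1. In 1 read of replicate 2 the first exon ended 814 bases upstream of the main position, at no annotated donor. The promoter window next to the main first exon is shown because these reads bear on it. It is the RefSeq window on GRCm38.p6 from 250 bases before to 50 after the start, plus strand, at chr5:75152001-75152300, and its capitals mark the E-boxes (CANNTG, a palindromic pattern and so counted once for both strands), the motif bound by helix-loop-helix proteins. There were 2, and 72.1% of 27025 promoters of this length hold at least 1, so their presence is common. The RefSeq windows of Olig2 and Cspg4, the other genes of the 7 with an entry, held 0.
Pdgfra: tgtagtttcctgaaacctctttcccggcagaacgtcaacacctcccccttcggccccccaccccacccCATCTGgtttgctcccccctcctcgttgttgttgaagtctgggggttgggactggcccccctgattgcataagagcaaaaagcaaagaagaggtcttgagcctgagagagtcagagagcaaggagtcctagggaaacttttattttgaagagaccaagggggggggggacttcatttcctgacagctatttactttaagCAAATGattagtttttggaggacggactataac

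A short form of Pdgfra was also read. Pdgfra-208 (2 reads in replicate 2) and Pdgfra-205 (1 read in replicate 1) have 16 exons, run on into the intron after their last shared exon, and encode 790 codons against 1089 in Pdgfra-201. The same short coding end lay in a genomic model with 1 read in replicate 2. Reads that ended in that intron were 1 of 41 and 3 of 38 (2.44% and 7.89%), and all others ended in exon 23. The end of the coding sequence of Pdgfra-208 is shown on mm10, plus strand, at chr5:75183113-75183192, with the 50 coding bases that lie in the intron of Pdgfra-201 in capitals.
Pdgfra-208: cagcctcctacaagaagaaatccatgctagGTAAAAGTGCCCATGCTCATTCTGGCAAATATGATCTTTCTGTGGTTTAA

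**Figure D2:**
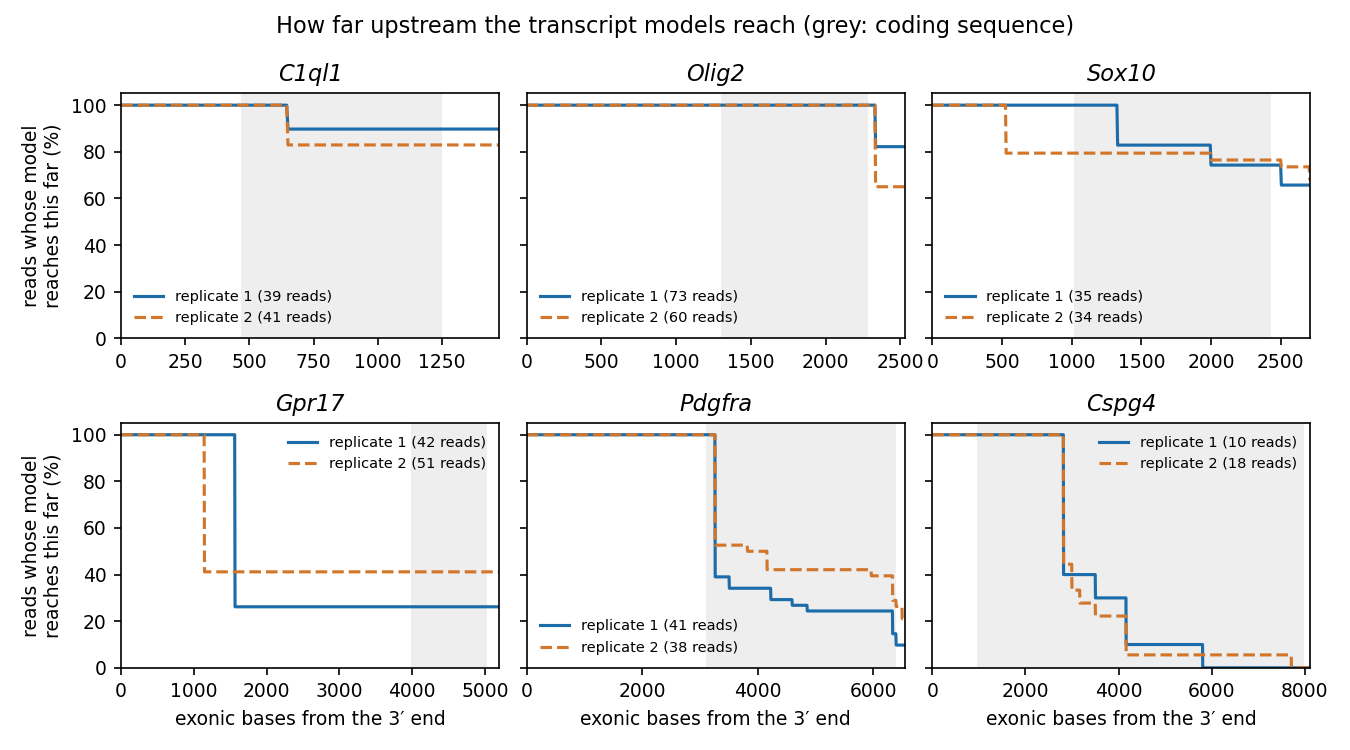
Share of reads, by library, whose transcript model reaches at least a given number of exonic bases upstream from the 3′ end of the main annotated transcript, with the coding sequence in grey. Models of C1ql1, Olig2 and Sox10 mostly held the coding sequence, while for Gpr17, Pdgfra and Cspg4 the largest drop lay at a model with 1 exon.

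Gpr17 encodes a G protein-coupled receptor, related to purinergic and cysteinyl leukotriene receptors, that restrains the last step of differentiation. It lies on chromosome 18 (31942997 to 31949636, minus strand) with 1 annotated transcript of 2 exons and 5195 bases, in which 1020 coding bases are followed by a 3′ untranslated stretch of 3992 bases. It had 42 reads in replicate 1 and 51 in replicate 2, or 54.2 CPM (39.1 to 73.2) and 55.2 CPM (41.1 to 72.6). Its log2 ratio was -0.02 (95% interval -0.61 to 0.56, Fisher's exact adjusted p = 1), the value nearest to 0 of the 7 genes. Its sign turned with ERCC reads as the denominator (0.26), and it was -0.64 with Known models alone and -0.65 without genomic and antisense models, where it was not the nearest to 0.

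Gpr17 was the gene of the 7 with most reads in genomic models. Gpr17-201 held 10 of 42 and 19 of 51 reads. A single-exon genomic model held 31 of 42 (73.8%, Wilson 58.9% to 84.7%) and 30 of 51 (58.8%, 45.2% to 71.2%). In both libraries it began at the annotated 3′ end and lay wholly in the untranslated part of the last exon, over 1560 bases in replicate 1 and 1143 in replicate 2. The difference in this share between the libraries did not pass (Fisher's exact test, p = 0.188, adjusted p = 1). Over both libraries genomic models held 65.6% of its reads, above 98.3% of the 6178 genes. Taken as the share of single-exon models of any class, the same 65.6% was above 94.8% of these genes. The share of Known models, at 31.2%, was above that of 23.9% of the 1199 genes of like length. An unannotated gap of 285 bases within the last exon, between canonical splice-site bases, was in 1 read of each library.

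On the opposite strand, Lims2 overlaps the last exon of Gpr17 with 2 exons over 188 bases, beginning 1142 bases from its 3′ end. The upstream ends of the single-exon Gpr17 models, 31944556 in replicate 1 and 31944139 in replicate 2, are each an end of 1 of these Lims2 exons (31944139 to 31944205 and 31944436 to 31944556). Lims2 had 17 and 23 reads in all, and 30 of its reads over both libraries were in models that cross that stretch. How the strand of single-exon reads was set is not given in the sources used here, and whether reads of the pair were exchanged where they overlap was not tested. Counting every read of the strand over annotated exons left Gpr17 at 42 and 51 reads. That count takes the strand as assigned, so it cannot show whether reads were exchanged.

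Cspg4 encodes the NG2 proteoglycan, a large surface protein that binds growth factors and matrix. It lies on chromosome 9 (56865033 to 56899870, plus strand), and Cspg4-201 has 10 exons and 8121 bases, of which 6984 are coding, the longest coding sequence of the 7 genes. It had 10 reads in replicate 1 and 18 in replicate 2, or 12.9 CPM (6.19 to 23.7) and 19.5 CPM (11.5 to 30.8). The log2 ratio was -0.56 (95% interval -1.66 to 0.53, Fisher's exact adjusted p = 0.862), an interval too wide to tell the direction. Genes of mural cells, which also use Cspg4, had summed levels of 257 CPM in replicate 1 and 307 CPM in replicate 2. All 6 of their tested ratios were below 0 (3 of 6 with ERCC reads as the denominator) and 0 passed. Of all tested genes 51.5% had a ratio above 0 and 2.11% passed, and with ERCC reads their median was 0.29. The part of the mural genes in the Cspg4 value was not tested.

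No Cspg4 model held the whole coding sequence or its start codon in either library, 0 of 28 reads, which allows a share of up to 10.7%. A single-exon ISM model of the last exon held 6 of 10 and 10 of 18 reads, and a chain of 7 exons held 2 and 3. The longest chains had 8 of 10 exons with 1 read in each library. That of replicate 2 was 7711 bases long and held 96.4% of the coding sequence, whereas that of replicate 1 was 5806 bases long and held 69.1%. The short annotated transcript Cspg4-204, of 2 exons, had 0 and 2 reads and was the only Known model read.

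C1ql1 encodes a secreted C1q-like protein that binds the adhesion receptor Adgrb3 at synapses and is also a marker of oligodendrocyte precursors. It lies on chromosome 11 (102939264 to 102946688, minus strand) with 1 transcript of 2 exons and 1473 bases, 777 of them coding. It had 39 reads in replicate 1 and 41 in replicate 2, or 50.3 CPM (35.8 to 68.8) and 44.4 CPM (31.8 to 60.2). The log2 ratio was 0.18 (95% interval -0.45 to 0.81, Fisher's exact adjusted p = 0.957), which did not pass. C1ql1-201, with the whole coding sequence, took 35 of 39 reads (89.7%, Wilson 76.4% to 95.9%) and 32 of 41 (78.0%, 63.3% to 88.0%). An ISM model of the last exon alone held 4 and 7 reads.

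The other 2 reads of C1ql1, both in replicate 2, used an unannotated splice site at the only intron. In the first the acceptor lay 24 bases downstream, which keeps the reading frame, and in the second the donor lay 32 bases upstream, which does not. Both are shown on the annotated junction of exon 1 (chr11:102945865-102945909, minus strand, mm10) with exon 2 (chr11:102939868-102939912), with the bases each read left out in capitals.
C1ql1 acceptor: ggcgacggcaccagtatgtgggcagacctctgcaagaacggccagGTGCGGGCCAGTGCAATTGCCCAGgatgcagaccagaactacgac
C1ql1 donor: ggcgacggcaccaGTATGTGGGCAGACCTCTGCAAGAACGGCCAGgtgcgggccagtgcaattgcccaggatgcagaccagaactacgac

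Over the 7 genes, Known models held 68.6% of reads in replicate 1 and 65.9% in replicate 2, beside 66.0% and 64.6% of all mouse reads. ISM models held 15.8% and 14.2%, beside 9.70% and 10.1%, and genomic models 14.7% and 16.5%, beside 5.20% and 6.01%. Most of the genomic reads came from Gpr17 and Olig2 and most of the ISM reads from Pdgfra and Cspg4, so the sums describe those genes more than all 7. Chains with an unannotated splice site held 0.587% and 3.35%, beside 4.11% and 4.12% of all mouse reads. Of 26 unannotated spliced chains 8 were in both libraries, of which 7 were ISM chains and the remaining chain was the Gpr17 gap. Median Known shares of genes were 80.9% where the longest coding transcript had 2000 to 3000 bases, the range of Olig1, Olig2 and Sox10, and 54.1% at 5000 to 7000 bases, the range of Gpr17 and Pdgfra.

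**Figure D3:**
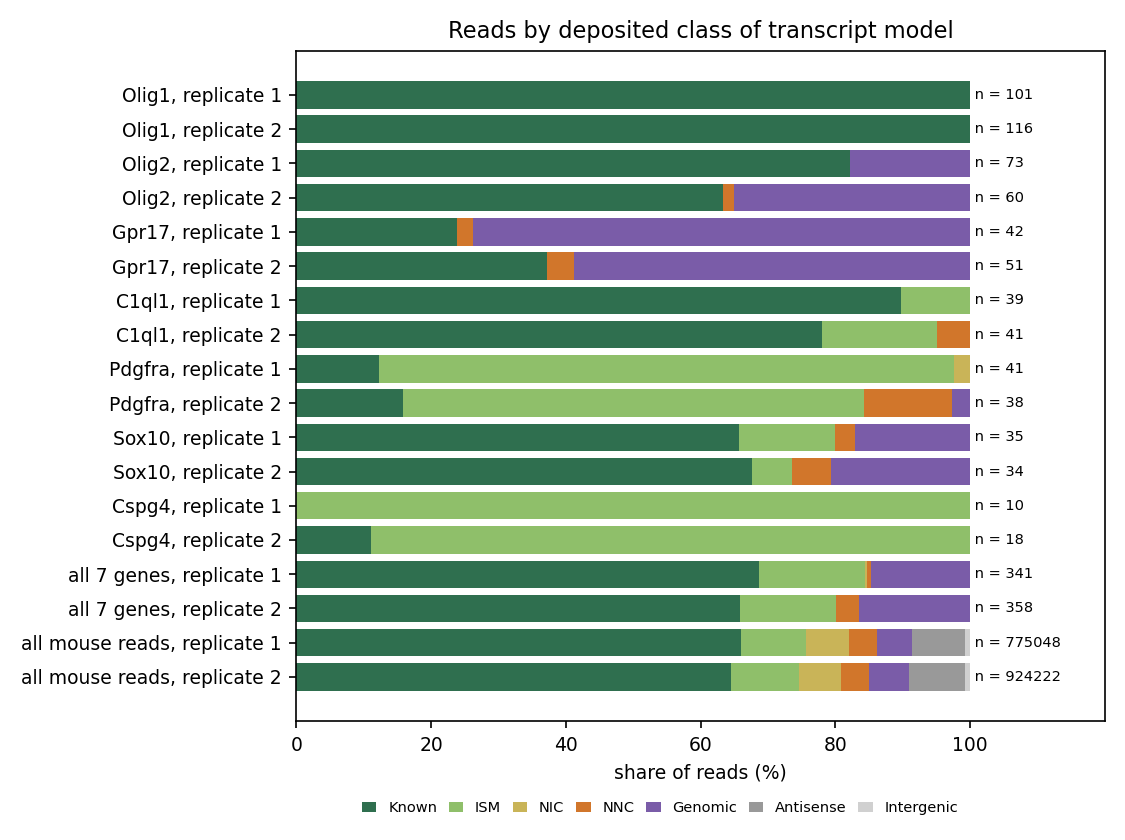
Share of reads by deposited class of transcript model for each gene and library, with the number of reads at the right and all mouse reads at the bottom. Olig1 had only Known reads, Gpr17 mostly genomic reads (73.8% and 58.8%), and Pdgfra and Cspg4 mostly incomplete splice matches (ISM).

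None of the 7 genes passed the test between the libraries. By Fisher's exact test with adjustment over 11203 genes, 0 of 7 passed, where 2.11% of all tested genes did (236), and Olig2 was the 1 gene with an unadjusted p under 0.05. The median log2 ratio was 0.18, with 5 of 7 above 0, beside 0.01 over all tested genes, of which 51.5% were above 0. With ERCC reads as the denominator 6 of 7 were above 0 and 1, Olig2, passed. There 987 of all 11203 tested genes passed, 944 of them higher in replicate 1, and the median of all tested genes was 0.29. With Known models alone the ratios of Pdgfra and C1ql1 were 0.01 and 0.38, and Cspg4 had too few reads to test. With 10 to 116 reads per gene and library, a small difference was not detectable at this depth: the interval of Sox10, for example, ran from -0.38 to 0.97. For 6 pairs of the genes the ratio of their reads was compared between the libraries. Pdgfra had 4.10 reads per Cspg4 read in replicate 1 and 2.11 in replicate 2, and Gpr17 had 1.02 and 1.34 reads per Pdgfra read. None of the 6 passed (Fisher's exact test, adjusted p of 0.561 or higher).

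**Figure D4:**
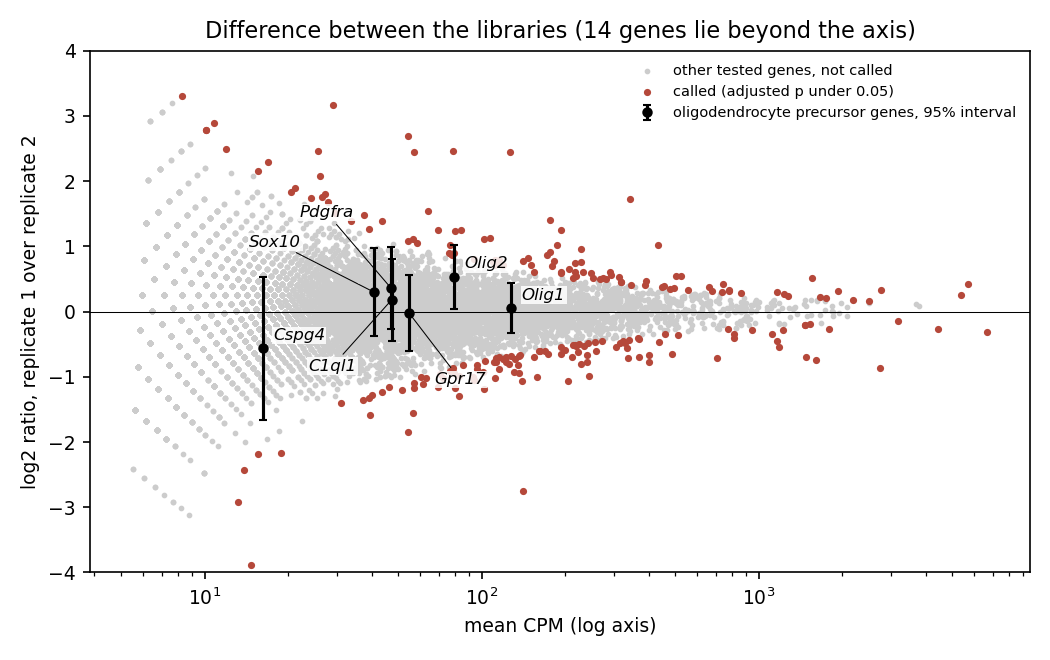
Log2 ratio of replicate 1 over replicate 2 against mean CPM for all 11203 tested genes, with genes past the test in red and the 7 oligodendrocyte precursor genes in black with 95% intervals. All 7 lie among the genes that did not pass, and the interval of Olig2 alone stays above 0.

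The lists below are to be read against all tested genes, of which 2.11% passed, with a median log2 ratio of 0.01. Of 16 other genes known from precursors 12 could be tested and 0 passed Fisher's exact test, with a median log2 ratio of 0.04. The perineuronal proteoglycan Bcan led with 653 CPM in replicate 1 and 607 CPM in replicate 2, followed by the extracellular matrix gene Emid1 (77.4 and 79.0 CPM) and the AMPA receptor auxiliary subunit Cacng4 (69.7 and 51.9 CPM). The genes with too few reads to test were Pcdh15 (3 and 2 reads), Matn4 (2 and 1), Lhfpl3 (0 and 2) and Vcan (1 and 0), so the list was read unevenly. Of 12 genes of committed precursors and newly formed oligodendrocytes 9 could be tested, and 1 was higher in replicate 1. This was Ugt8a, which makes the myelin lipid galactosylceramide, with 61 and 35 reads (log2 ratio 1.05, 95% interval 0.45 to 1.64, Fisher's exact adjusted p = 0.0283). The deacetylase Sirt2 (325 and 289 CPM), the kinase Fyn (284 and 269 CPM) and Mpzl1 (117 and 116 CPM) led that list. Itpr2 (5 and 3 reads), Tmem2 (2 and 6) and Tns3 (2 and 4) had too few reads to test.

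Of 10 genes of myelin 8 could be tested, 2 were higher in replicate 1 and all 8 ratios were above 0, with a median of 0.69. Of all tested genes 2.11% passed in either direction and 51.5% had a ratio above 0, with a median of 0.01. Mbp, which encodes the basic protein that compacts myelin, had 1836 CPM in replicate 1 and 1285 CPM in replicate 2 (log2 ratio 0.51, 95% interval 0.40 to 0.63, Fisher's exact adjusted p = 8.72e-17). Cnp, a phosphodiesterase of myelin, had 622 and 425 CPM (log2 ratio 0.55, 95% interval 0.36 to 0.74, Fisher's exact adjusted p = 6.96e-06). Mobp, with 95.5 and 61.7 CPM, did not pass. The summed level of the 10 genes was 2698 CPM in replicate 1 and 1862 CPM in replicate 2. Beside it stood 440 and 387 CPM for the 7 precursor genes. Whether the precursor genes differ from the myelin genes in this ratio was not tested. The striatal genes moved the same way, with 928 CPM in replicate 1 and 223 CPM in replicate 2, and 5 of 6 tested passed. Their part in the myelin values was not tested.

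In the pathways around the genes, counts are to be read against the 2.11% of all tested genes that passed. Of 21 transcription factors of the lineage 15 could be tested and 0 passed, with a median of 0.01. The helix-loop-helix partner Tcf4 (250 and 288 CPM), and Id2 (132 and 147 CPM) and Id4 (134 and 99.5 CPM), which block such partners, had the highest levels. Of 11 genes of platelet-derived growth factor signalling 10 could be tested and 0 passed, with a median of -0.18. The adaptor Grb2 had 147 and 129 CPM, the ligand Pdgfb 80.0 and 95.2 CPM, and the phospholipase Plcg1 72.3 and 89.8 CPM. Pdgfa, the ligand of Pdgfra made by neurons and astrocytes and named here after its values were seen, had 58.1 and 76.8 CPM.

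Of 12 genes of inhibitory G proteins, adenylyl cyclases and receptors related to Gpr17, 10 could be tested and 1 was higher in replicate 1. This was Adcy5, an adenylyl cyclase known for its abundance in striatum, with 80 and 47 reads (log2 ratio 1.02, 95% interval 0.50 to 1.53, Fisher's exact adjusted p = 0.0109). Gnao1 (427 and 400 CPM), Gnai1 (422 and 374 CPM) and Gnai2 (155 and 173 CPM) led the list. Of 5 C1q-like genes and receptors 3 could be tested and 0 passed: Adgrb1 (98.1 and 143 CPM), the C1ql1 receptor gene Adgrb3 (50.3 and 54.1 CPM) and C1ql3 (34.8 and 42.2 CPM). Of 7 partners of the NG2 proteoglycan 6 could be tested and 0 passed, led by the scaffold gene Sdcbp (218 and 196 CPM), the integrin gene Itgb1 (135 and 164 CPM) and the protease gene Adam10 (23.2 and 31.4 CPM).

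**Figure D5:**
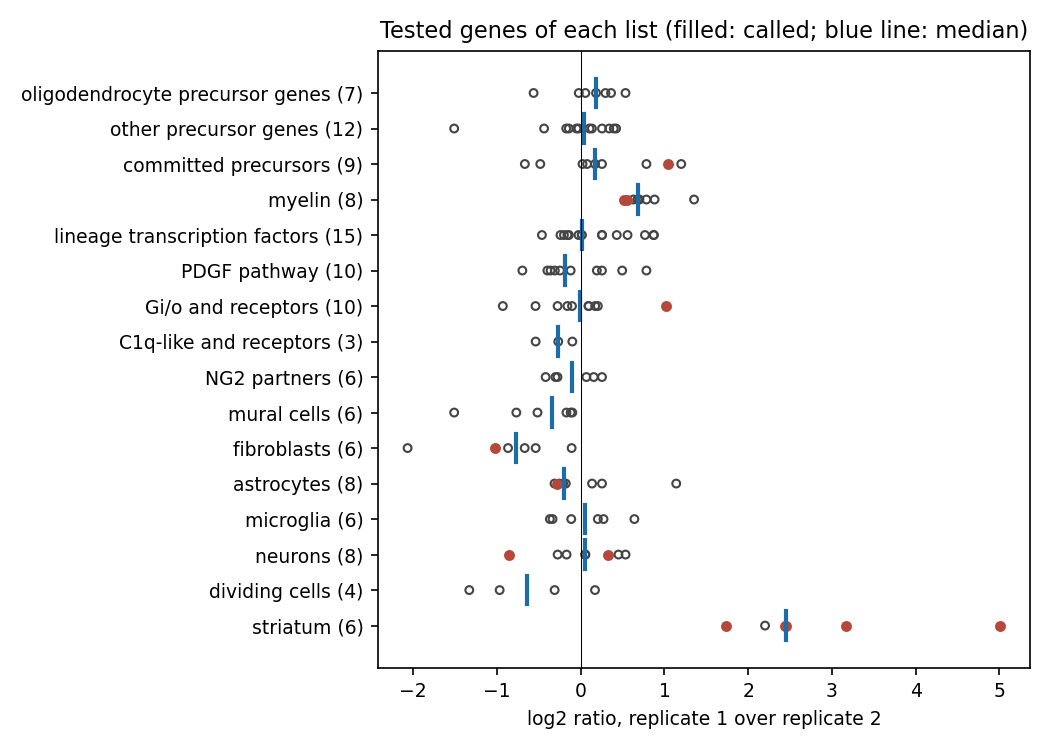
Log2 ratio of replicate 1 over replicate 2 for the tested genes of each list, with the number tested in brackets, genes past the test filled and the list median as a blue line. The 7 precursor genes lie between -0.56 and 0.53 with none filled, the myelin genes all above 0 and the striatal genes farthest to the right.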

How the data were processed

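The authors deposited, for each of 2 libraries, a table of whole-number read counts by transcript model, beside exon structures (other columns: exon numbers, lengths and positions). Per the text deposited with them, the models rest on mm10 and GENCODE M21 plus spike-in sequences and were made separately per library. The deposited models name TALON as origin of features outside the annotation. Aligner and versions: not given in the sources used here. Models with no read are missing from the tables.

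A gene's count is the sum over its models, and CPM scales it to 1000000 mouse reads. Each gene with 10 or more reads in all was set against the other mouse reads of the libraries by Fisher's exact test (two-sided), with Benjamini-Hochberg adjustment over all genes and a threshold of 0.05. Log2 ratios used counts plus 0.5 reads. The share of the leading isoform was tested likewise where each library had 20 or more reads of the gene and more than 1 isoform was read. Of the 7 genes Olig1, with 1 isoform, and Cspg4, with too few reads, did not enter that test. Spliced unannotated models were matched between libraries by their introns, and single-exon ones pooled. Intervals and floors (3 counts) cover counting error only. Positions are 1-based. A model's reach is that of its deposited exons, and a Known model carries the annotated ends whatever the ends of its reads. Of the 7 genes 3 had a RefSeq promoter entry.

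The genes and lists were chosen with earlier results of these data known. Named were the 7 genes, of each other list the 3 with the highest mean CPM and those past the test, and isoforms with at least 3 reads in all. Isoforms and chains with fewer reads, and Pdgfrb, Pdgfa, Mki67 and Adora2a, were named after their values were seen. So were the genes with too few reads to test in the lists of precursors and committed precursors. Some genes of the lists are not reported here and enter none of the lists' counts or sums. The test was checked on simulated counts. Alternatives covered model classes, normalization (TMM from edgeR 4.0.16, ERCC reads), the minimum of reads, and each replicate left out. With TMM or ERCC scaling an exact binomial test, with the libraries' share taken as fixed, replaced Fisher's exact test. Python 3.11.15, SciPy 1.17.1, bedtools 2.31.1 and R 4.3.3 were used.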

Additional observations from a re-analysis of the deposited data

How the results depend on the processing

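With ERCC spike-in reads as the denominator, 987 genes passed the test between the libraries in place of 236, and 1 of the 7 precursor genes did in place of 0. That scaling moved the median log2 ratio of all tested genes to 0.29 in place of 0.01. Olig2 had 0.82 there (exact binomial test, adjusted p = 0.0219), and Gpr17 had 0.26 in place of -0.02. With ISM models left out, 78 of 5403 genes passed the isoform test in place of 15 of 6024. Of the 7 genes only Olig2, Sox10, Gpr17 and C1ql1 could then be tested, and none of them passed. Why more genes passed was not tested. The difference in the share of Sox10-201 was 4.79 points in place of -1.93, as 5 of 35 Sox10 reads in replicate 1 and 2 of 34 in replicate 2 were ISM reads and left its total. With Known models alone the mean summed level of the 7 genes was 279 CPM in place of 414, since reads of other classes are then not counted. In models with at least 2 reads, which leaves out models of 1 read, the Known share of their reads was 69.6% in place of 67.3%. Of 41 ratios of the 7 genes under alternatives, 39 kept their direction and their side of the threshold, the others being those of Olig2 and Gpr17 above. Counts of genes past the test stayed within 1.5 times the reported value for Known models alone (159 of 8526), models other than genomic and antisense, all reads of the strand, TMM scaling and no minimum of reads. Without replicate 1 or replicate 2 the summed level ranged from 387 to 440 CPM and the Known share from 65.9% to 68.6%. No paired analysis was possible because there is 1 group, and leaving out a library leaves nothing to test. Cspg4, with 28 reads over both libraries, and the chains with 1 read are limited by depth.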

Other observations

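Genes of dividing cells and of other cell types were read beside the 7 genes. Their counts are to be read against the 2.11% of all 11203 tested genes that passed. Of 8 genes known from dividing cells 4 could be tested and 0 passed Fisher's exact test, and the summed level was 76.1 CPM in replicate 1 and 87.6 CPM in replicate 2. Pcna, the sliding clamp of DNA replication, had 42.6 and 37.9 CPM, the replicative helicase subunit gene Mcm6 15.5 and 19.5 CPM, and the cyclin gene Ccnb1 5.16 and 10.8 CPM. Mki67 had no read in either library. Of 7 microglial genes 6 could be tested and 0 passed (summed level 364 and 354 CPM), with P2ry12 at 110 and 95.2 CPM, Csf1r at 102 and 84.4 CPM and Tmem119 at 52.9 and 67.1 CPM. Of 8 astrocyte genes 1 passed, Aldoc (1101 and 1341 CPM, log2 ratio -0.28), beside Gja1 at 577 and 690 CPM and Slc1a3 at 586 and 663 CPM. Of 8 neuronal genes Tubb3 (868 and 692 CPM, log2 ratio 0.33) and Nrgn (1942 and 3525 CPM, -0.86) passed, and Snap25 had 1307 and 1261 CPM.

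The fibroblast gene that passed was Col3a1 (73.5 and 150 CPM, log2 ratio -1.02), and Col1a1 (49.0 and 53.0 CPM) and Slc6a13 (25.8 and 37.9 CPM) followed it in level. The mural genes were led by Rgs5 (129 and 138 CPM), Vtn (71.0 and 80.1 CPM) and Acta2 (19.4 and 33.5 CPM). The striatal genes that passed were Ppp1r1b (525 and 158 CPM), Penk (214 and 39.0 CPM), Rgs9 (96.8 and 17.3 CPM), Drd1 (52.9 and 5.41 CPM) and Drd2 (13 and 0 reads).

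A spliced transcript ran opposite to the Olig1 and Olig2 locus in both libraries. It was assigned to 4932438H23Rik, had 3 exons and the same introns in each library, and rested on 1 read in each. It began inside the exon of Olig1, with an overlap of 118 bases in replicate 1 and 114 in replicate 2, and spanned 215091 and 215745 bases with no exon in Olig2. At Sox10, 1 antisense read of replicate 2 with 1 exon of 3534 bases overlapped its exons by 506 bases.

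Some unannotated junctions of the 7 genes are known from few reads only. In replicate 2, 2 reads of Pdgfra used an acceptor 2 bases downstream of the annotated site, and 1 read had an acceptor 9 bases downstream. Another Pdgfra read of replicate 2 joined annotated and unannotated sites over a gap of 9538 bases. Gpr17 had a further gap of 833 bases inside its last exon in 1 read of replicate 2, and Sox10 a gap of 1183 bases inside 1 exon, whose ends share 4 bases of repeat. Both of these gaps lay between canonical splice-site bases.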
